A study of Mus musculus with 12 samples.

Results

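The 10 genes described here were Il6, Cxcl1, Cxcl2, Ccl2, Ccl7, Sele, Icam1, Tnfaip3, Nfkbia and Nfkbiz, taken by gene symbol from the 55885 genes of the deposited expression matrix. They encode a cytokine, chemokines, adhesion molecules of the vessel wall and regulators that act back on NF-kB. RNA of 12 mouse hearts was sequenced to ask how cisplatin (CDDP), a platinum drug used against solid tumors, acts on the heart with and without STING, an adaptor protein of the pathway that senses DNA in the cytosol. The hearts fell into 4 groups of 3. All mice were of the C57BL/6 strain in the labels, and the methods give C57BL/6J for the wild type mice and as the background of the STING-/- mice. The Saline group held wild type mice. The labels call them untreated, and the methods describe saline. The CDDP group held wild type mice given cisplatin into the peritoneum at 6 mg/kg on days 1, 8 and 15. The STING-/- group held Tmem173-/- mice without cisplatin, Tmem173 being an older symbol of Sting1, and the STING-/-+CDDP group held mice of that genotype given the same injections. All mice were males 8 weeks old at the start, and hearts were taken on day 22. The null allele is carried by every cell of these mice, and they were bought from another source than the wild type mice, so genotype and source cannot be told apart. Hearts are numbered 1 to 3 within a group, and the p-values below measure only the spread between these libraries.

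NF-kB is a family of transcription factors held in the cytoplasm by IkB proteins. Signals from TNF, interleukin-1 and Toll-like receptors, and from STING, lead to phosphorylation and loss of the IkB proteins, after which NF-kB enters the nucleus and binds kappaB sites near its target genes. In the heart, endothelial cells, fibroblasts, resident macrophages and cardiomyocytes can all answer in this way, with chemokines that draw neutrophils and monocytes and adhesion molecules that hold them at the vessel wall. The same signal induces IkB-alpha (Nfkbia) and A20 (Tnfaip3), which shut it down again.

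The genes' promoters are shown first, because they carry the binding sites through which the family is known to be induced. Windows from 250 bases before to 50 bases after the transcription start were taken from the RefSeq table of build GRCm38.p6, which held 7 of the 10 genes. Ccl2, Ccl7 and Nfkbiz are named only. The 10-base kappaB consensus was found on either strand in 5 of these 7 genes, against 4.51% of the 32851 windows in the table. That share counts windows and not genes, and the second of the 2 windows of Tnfaip3 holds no match. The genes were listed as NF-kB genes beforehand, so an excess of matches is no result of these data. The lines below give 70 bases around each match, read along the strand of the gene, with the matching 10 bases in capitals.
Il6, chr5:30013040-30013109, plus strand: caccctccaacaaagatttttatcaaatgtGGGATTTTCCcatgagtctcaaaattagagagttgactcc
Cxcl1, chr5:90891144-90891213, plus strand: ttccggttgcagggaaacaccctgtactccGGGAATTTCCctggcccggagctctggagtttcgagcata
Cxcl2, chr5:90903772-90903841, plus strand: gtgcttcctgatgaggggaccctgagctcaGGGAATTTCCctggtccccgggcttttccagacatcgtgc
Tnfaip3, chr10:19015496-19015565, minus strand: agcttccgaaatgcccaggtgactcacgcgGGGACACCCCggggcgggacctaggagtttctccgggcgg
Tnfaip3, chr10:19015383-19015452, minus strand: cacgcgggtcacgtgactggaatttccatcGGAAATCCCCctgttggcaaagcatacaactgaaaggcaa
Nfkbia, chr12:55492637-55492706, minus strand: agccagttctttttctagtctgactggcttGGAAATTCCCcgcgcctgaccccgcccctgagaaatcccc

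Cxcl1 and Cxcl2 carry the same 10 bases in capitals, from 71 to 62 bases before the start in Cxcl1 and from 97 to 88 before it in Cxcl2. In both genes a further match lies 1 base downstream on the opposite strand and overlaps the one shown. Il6 holds its match from 44 to 35 bases before the start, and Nfkbia from 29 to 20. Tnfaip3 has a pair of matches, from 125 to 116 and from 12 to 3 bases before its first listed start, and none at its second listed start. The match of Nfkbia and the one nearer the start of Tnfaip3 fit the consensus on the opposite strand. No match to this consensus lies in the windows of Sele and Icam1. Only exact matches were searched for, so kappaB sites that differ from the consensus may lie in them. The AP-1 site TGANTCA, which reads alike on both strands, was found in Il6, Sele and Tnfaip3 and in 7.81% of all windows. The TGACG core of a cAMP response element was found in Il6, Cxcl1 and Tnfaip3 and in 20.8% of all windows. A match of letters is a description of the window and no evidence of binding.

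**Figure D1:**
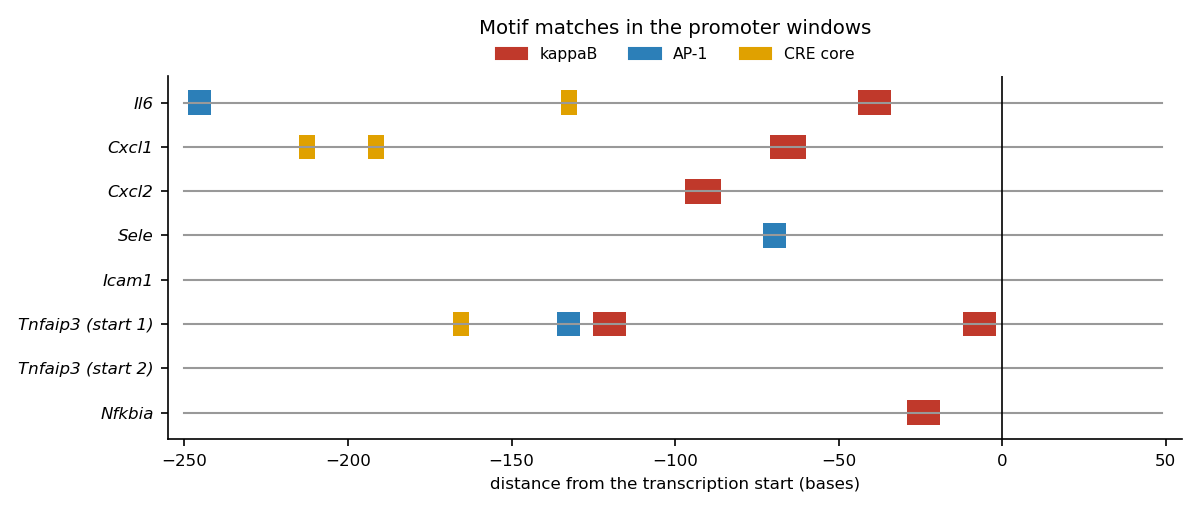
Matches to the kappaB consensus, the AP-1 site and the CRE core in the promoter windows of 7 genes, by distance from the transcription start in bases, with 2 starts for Tnfaip3. The kappaB matches (red) lie within 125 bases before the start in 5 genes, and the windows of Icam1 and of the second Tnfaip3 start hold no match to any of the motifs.

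Expression was given as TPM, which divides reads by gene length and scales each heart to the same sum, so levels may be compared between genes. It holds no record of depth. Each heart had 19680 to 21024 genes above 0. Sting1, the targeted gene, was at 12.28, 6.59 and 6.50 TPM with saline, 22.11, 5.62 and 8.81 with cisplatin, 3.82, 5.96 and 2.87 without STING and 4.26, 4.67 and 3.37 in STING-/-+CDDP hearts. It was lower without overlap in STING-/- against Saline hearts and in STING-/-+CDDP against CDDP hearts (two-sided exact permutation tests, p = 0.10 both times). That test can give no smaller p for 3 hearts against 3. Across treatments the genotypes overlapped, with STING-/- heart 2 (5.96) above CDDP heart 2 (5.62). Sting1 was above 0 in every heart of both STING-/- groups. The part of the gene that is lost was not checked here. Summed TPM of 6 cardiomyocyte markers was 16060 to 27440 in all hearts. Heart 1 of the CDDP group stood apart, with a sum of 10 neutrophil markers of 1133 against 45.8 and 28.2 in CDDP hearts 2 and 3 and 5.07 to 91.4 in the other groups. Its sum of 5 monocyte markers was 215, against 9.83 to 72.5 in all other hearts. Chil3 alone gave 162.67 of that sum, and Plac8 (24.46) and Itgam (21.31) were also highest in this heart. Ly6c2 (5.78) and Ccr2 (0.88) were not, with 9.68 in Saline heart 1 and 3.68 in STING-/- heart 2. Within the STING-/- group, heart 2 was highest in both sums, with 91.4 and 72.5. None of the markers in these lists was at 0 in every heart, and the part of these cells in the results below was not tested. In whole hearts, fewer cells of a type and less RNA per cell cannot be told apart.

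In wild type hearts, the chemokine genes Cxcl1 and Cxcl2, the adhesion molecule gene Icam1 and the feedback genes Tnfaip3 and Nfkbia were higher after cisplatin than with saline. Values were compared on the log2(TPM + 1) scale, which understates fold changes at low TPM. The 13815 genes that reached a TPM of 1 in 3 or more hearts were tested together with limma, using all 12 hearts and Benjamini-Hochberg adjustment, and a gene is said to rise or fall where its adjusted p is under 0.05. Of the 10 genes 9 were tested, all except Il6. Of these, 5 rose in CDDP against Saline (Cxcl1, Cxcl2, Icam1, Tnfaip3 and Nfkbia) and 0 fell, beside 8.52% of all tested genes that rose and 10.4% that fell. Of the 5, Cxcl2 met the filter only through the CDDP hearts. The median log2 fold change of the 9 genes was 1.41, and that of all tested genes -0.00. For 7 of the 10 genes the CDDP hearts lay above the Saline hearts without overlap, beside 14.9% of tested genes. The CDDP group had the highest mean of the 4 groups for 9 of the 10 genes, beside 40.0% of tested genes. In STING-/- mice 0 of the 9 genes rose or fell after the same injections, beside 0.934% of all tested genes called in either direction.

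**Figure D2:**
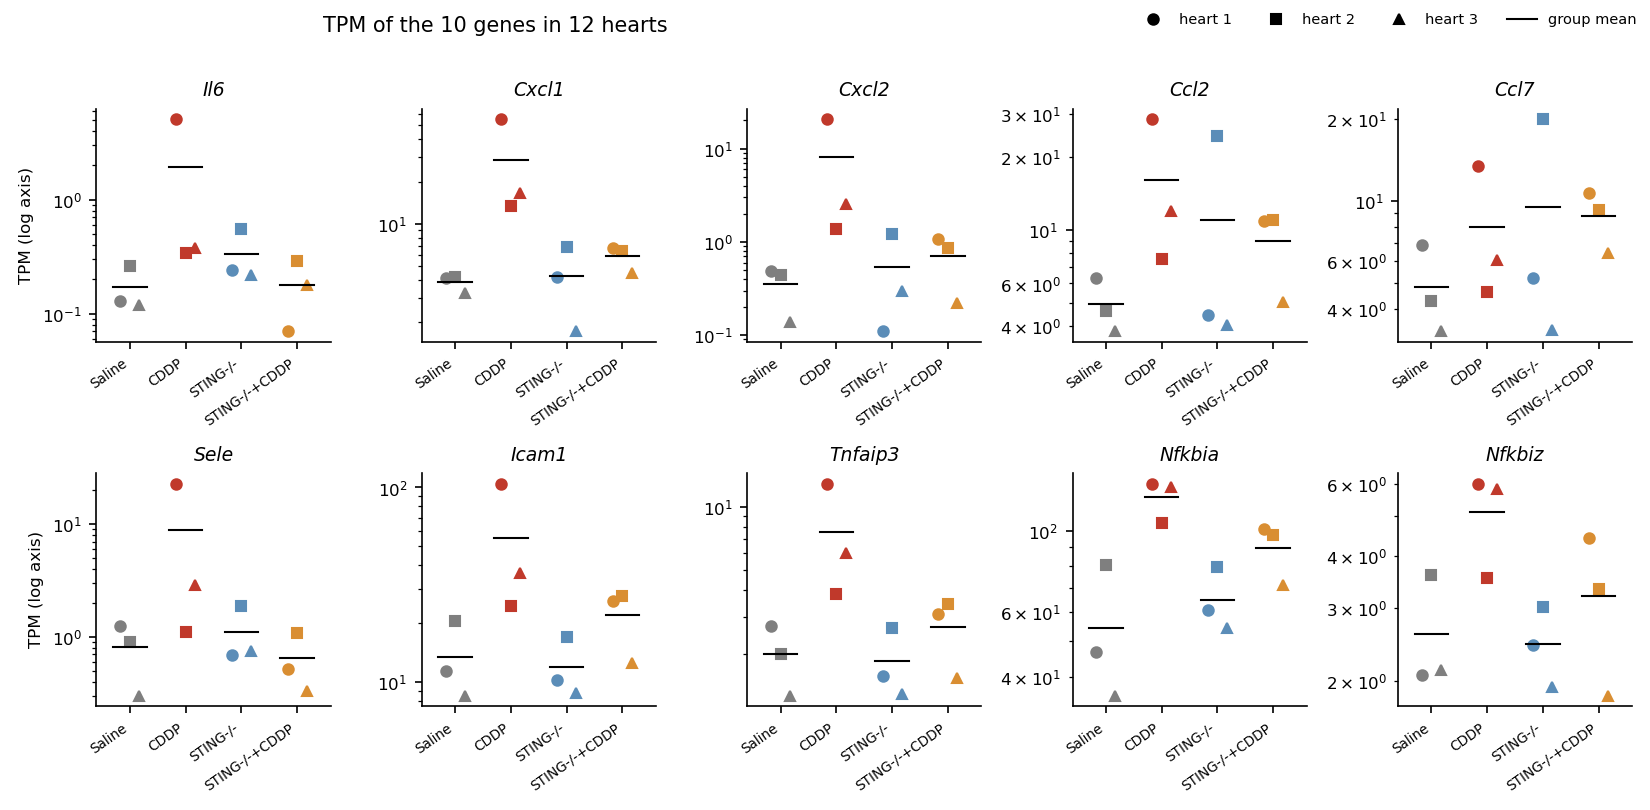
TPM of the 10 genes in each of the 12 hearts on log axes, with the heart number as the symbol and the mean of each group as a bar. CDDP heart 1 (red circle) is the highest of all hearts for 9 genes, and STING-/- heart 2 (blue square) is the highest for Ccl7.

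Il6 (ENSMUSG00000025746, chromosome 5 from 30013114 to 30019981, plus strand, build GRCm38) encodes interleukin-6, a cytokine of the acute phase that signals through gp130. Its TPM was 0.13, 0.26 and 0.12 for Saline, 5.05, 0.34 and 0.38 for CDDP, 0.24, 0.55 and 0.22 for STING-/- and 0.07, 0.29 and 0.18 for STING-/-+CDDP hearts. A single heart, CDDP 1, was above 1, at 14.0 times the mean of the other CDDP hearts. Even so, the 3 CDDP hearts lay above all Saline and all STING-/-+CDDP hearts (two-sided exact permutation tests, p = 0.10 both times). Its mean was the lowest of the 10 genes in each group.

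Cxcl1 (ENSMUSG00000029380, chromosome 5 from 90891241 to 90893115, plus strand) encodes a chemokine that draws neutrophils through the receptor Cxcr2. TPM of Cxcl1 was 4.15, 4.19 and 3.25 for Saline, 55.22, 13.49 and 16.55 for CDDP, 4.22, 6.84 and 1.73 for STING-/- and 6.72, 6.47 and 4.52 for STING-/-+CDDP hearts. All 3 CDDP hearts were above all 9 others. Cxcl1 rose in CDDP against Saline by 2.33 on the log2 scale (SE 0.47, limma adjusted p = 0.00733), and without CDDP heart 1 by 1.72 (adjusted p = 0.0119). This was the one gene of the 10 that passed under all 21 alternatives tried, with an adjusted p between 0.00611 and 0.0386.

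Cxcl2 (ENSMUSG00000058427, chromosome 5 from 90903871 to 90905938, plus strand) encodes the neighbouring chemokine, which acts on the same receptor and lies 10755 bases away with the small gene Gm22816 between them. Cxcl2 had a TPM of 0.49, 0.44 and 0.14 for Saline, 20.53, 1.37 and 2.56 for CDDP, 0.11, 1.22 and 0.30 for STING-/- and 1.06, 0.85 and 0.22 for STING-/-+CDDP hearts. Again the CDDP hearts were above all others, although CDDP heart 2 exceeded STING-/- heart 2 by little. Cxcl2 rose by 2.07 (SE 0.64, limma adjusted p = 0.0426). It was tested only through the group in which it was high, since 3 of the 5 hearts at 1 TPM or more were CDDP hearts. Its call is therefore no independent support for a rise. Without the filter on low values Cxcl2 did not pass (adjusted p = 0.103). The call is a narrow one, which passed under 9 of 21 alternatives (adjusted p 0.0147 to 0.134), and without CDDP heart 1 the difference was 1.11 (adjusted p = 0.053). Leaving out any single heart other than CDDP 2 or CDDP 3 moved its adjusted p above the threshold, to between 0.0505 and 0.109. Cxcl1 was 2.69 to 38.4 times Cxcl2 in TPM across the 12 hearts, and this ratio did not separate the CDDP from the Saline hearts (exact permutation test, p = 0.30). The transcripts of these 2 genes are related in sequence, and how reads that match both were assigned is not given in the sources used here.

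Ccl2 (ENSMUSG00000035385, chromosome 11 from 82035571 to 82037453, plus strand) encodes the main chemokine for monocytes, which bind it through Ccr2. Its levels were 6.33, 4.64 and 3.81 TPM for Saline, 28.5, 7.54 and 11.96 for CDDP, 4.43, 24.39 and 4.04 for STING-/- and 10.86, 10.98 and 5.03 for STING-/-+CDDP hearts. The CDDP hearts were above the Saline hearts without overlap, while STING-/- heart 2 reached nearly the level of CDDP heart 1. The difference between CDDP and Saline was 1.35 (SE 0.60, adjusted p = 0.137), and it passed when STING-/- heart 2 was left out (adjusted p = 0.0497). Gm17268, annotated on the opposite strand over Ccl2, was at 0 in every heart.

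Ccl7 (ENSMUSG00000035373, chromosome 11 from 82045712 to 82047525, plus strand), 8258 bases from Ccl2, encodes another chemokine for monocytes. It measured 6.89, 4.29 and 3.32 TPM for Saline, 13.42, 4.61 and 6.05 for CDDP, 5.21, 19.90 and 3.35 for STING-/- and 10.69, 9.27 and 6.45 for STING-/-+CDDP hearts. No group stood apart, and the highest heart was STING-/- 2 and not a CDDP heart. CDDP and Saline differed by 0.55 (SE 0.52, 95% interval -0.58 to 1.69, adjusted p = 0.493). Ccl7 was the gene least like the rest of the 10 across the 12 hearts, with a Pearson r of 0.60 to the mean of the other genes, against 0.81 to 0.96 for the others, a description without a test.

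The pair Ccl2 and Ccl7 moved unequally. In the 3 CDDP hearts Ccl2 was 2.12, 1.64 and 1.98 times Ccl7 in TPM, and in the 9 other hearts 0.78 to 1.23 times. The ratio of the CDDP hearts did not overlap with that of the Saline hearts (exact permutation test, p = 0.10) or of the STING-/-+CDDP hearts (p = 0.10), and CDDP hearts 2 and 3 showed it as well as heart 1. The ratio was chosen after its values had been seen.

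Sele (ENSMUSG00000026582, chromosome 1 from 164048234 to 164057677, plus strand) encodes E-selectin, on which leukocytes roll along inflamed endothelium. TPM of Sele was 1.24, 0.89 and 0.30 for Saline, 22.84, 1.10 and 2.90 for CDDP, 0.69, 1.89 and 0.74 for STING-/- and 0.52, 1.09 and 0.33 for STING-/-+CDDP hearts. CDDP heart 1 held 11.4 times the mean of the other CDDP hearts, and CDDP heart 2 fell within the Saline range. The difference of 1.72 (SE 0.67) did not pass (adjusted p = 0.0974). It was 0.70 without CDDP heart 1 (adjusted p = 0.219), and it passed without CDDP heart 2 at 2.45 (adjusted p = 0.0218).

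Icam1 (ENSMUSG00000037405, chromosome 9 from 21015985 to 21028817, plus strand) encodes the adhesion molecule to which leukocyte integrins bind firmly. Its TPM values were 11.37, 20.56 and 8.49 for Saline, 104.52, 24.57 and 36.40 for CDDP, 10.20, 16.99 and 8.77 for STING-/- and 25.91, 27.73 and 12.53 for STING-/-+CDDP hearts. The CDDP hearts were above all Saline and STING-/- hearts, and CDDP heart 2 lay below the higher STING-/-+CDDP hearts. Icam1 rose by 1.77 (SE 0.50, adjusted p = 0.0302). The rise was 1.18 without CDDP heart 1 (adjusted p = 0.0801), and it also missed the threshold without Saline heart 1 (0.0913) or Saline heart 3 (0.099). Gm47079, an antisense gene over Icam1, was at 0.04 TPM or less in every heart.

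Tnfaip3 (ENSMUSG00000019850, chromosome 10 from 19000910 to 19015657, minus strand) encodes A20, an enzyme that edits ubiquitin chains and ends signalling to NF-kB. It was at 2.72, 1.98 and 1.26 TPM for Saline, 12.89, 3.84 and 6.02 for CDDP, 1.56, 2.65 and 1.29 for STING-/- and 3.08, 3.46 and 1.53 for STING-/-+CDDP hearts. All CDDP hearts exceeded all 9 others. Tnfaip3 rose by 1.41 (SE 0.37, adjusted p = 0.0223). The rise was 0.99 without CDDP heart 1 (adjusted p = 0.0617) and 1.23 without Saline heart 3 (0.0768).

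Nfkbia (ENSMUSG00000021025, chromosome 12 from 55489410 to 55492647, minus strand) encodes IkB-alpha, the inhibitor that takes NF-kB back out of the nucleus. Nfkbia was the most abundant of the 10 genes, at 46.76, 80.70 and 35.64 TPM for Saline, 134.03, 105.18 and 131.26 for CDDP, 60.82, 79.88 and 54.29 for STING-/- and 101.24, 97.04 and 71.35 for STING-/-+CDDP hearts. Here CDDP heart 1 did not stand apart, at 1.13 times the mean of CDDP hearts 2 and 3, and the CDDP hearts were again above all others. Nfkbia rose by 1.24 (SE 0.27, adjusted p = 0.00955), and by 1.18 without CDDP heart 1 (adjusted p = 0.0282). It passed under 20 of 21 alternatives and missed the threshold in the fit of the compared groups alone (0.0528).

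Nfkbiz (ENSMUSG00000035356, chromosome 16 from 55811375 to 55838899, minus strand) encodes IkB-zeta, a nuclear cofactor that helps NF-kB induce a later set of genes. Its TPM was 2.06, 3.61 and 2.12 for Saline, 6.00, 3.55 and 5.84 for CDDP, 2.44, 3.01 and 1.93 for STING-/- and 4.44, 3.34 and 1.84 for STING-/-+CDDP hearts. CDDP hearts 1 and 3 were above all others, and CDDP heart 2 lay just under the highest Saline heart. The difference of 0.77 (SE 0.27) did not pass (adjusted p = 0.0719), and passed under 5 of 21 alternatives (adjusted p 0.0126 to 0.204). They were 2 other scalings of the hearts and the fits without Saline heart 2 (0.0418), CDDP heart 2 (0.0438) or STING-/-+CDDP heart 3 (0.0474).

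The comparison of STING-/-+CDDP with CDDP asks whether levels after cisplatin are lower without STING. It includes any difference between the genotypes that was there without cisplatin. Of the 9 tested genes 8 had a lower mean in STING-/-+CDDP hearts, and 0 of 9 passed, beside 0.854% of all tested genes that fell and 0.362% that rose. At an unadjusted p under 0.05, 4 genes were lower (Cxcl1, Cxcl2, Sele and Tnfaip3), beside 13.9% of all tested genes. For 6 of the 10 genes (Il6, Cxcl1, Cxcl2, Sele, Tnfaip3 and Nfkbia) every STING-/-+CDDP heart was below every CDDP heart, beside 15.6% of tested genes. The median difference of the 9 genes was -1.09, and that of all tested genes -0.09.

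The largest differences were those of Sele (-1.84, SE 0.67, 95% interval -3.32 to -0.37, adjusted p = 0.165), Cxcl1 (-1.83, SE 0.47, interval -2.86 to -0.80, adjusted p = 0.0806) and Cxcl2 (-1.76, SE 0.64, interval -3.16 to -0.37, adjusted p = 0.162). Cxcl1 passed without CDDP heart 2 (-2.20, adjusted p = 0.0433) and under none of the other alternatives. Tnfaip3 differed by -1.12 (adjusted p = 0.136) and Icam1 by -1.09 (adjusted p = 0.253). Smaller differences were measured for Ccl2 (-0.64, adjusted p = 0.59), Nfkbiz (-0.57, adjusted p = 0.279) and Nfkbia (-0.46, adjusted p = 0.365). Ccl7 was 0.22 higher without STING (adjusted p = 0.862). Without CDDP heart 1, the median difference of the 9 genes was -0.50 and 0 passed.

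**Figure D3:**
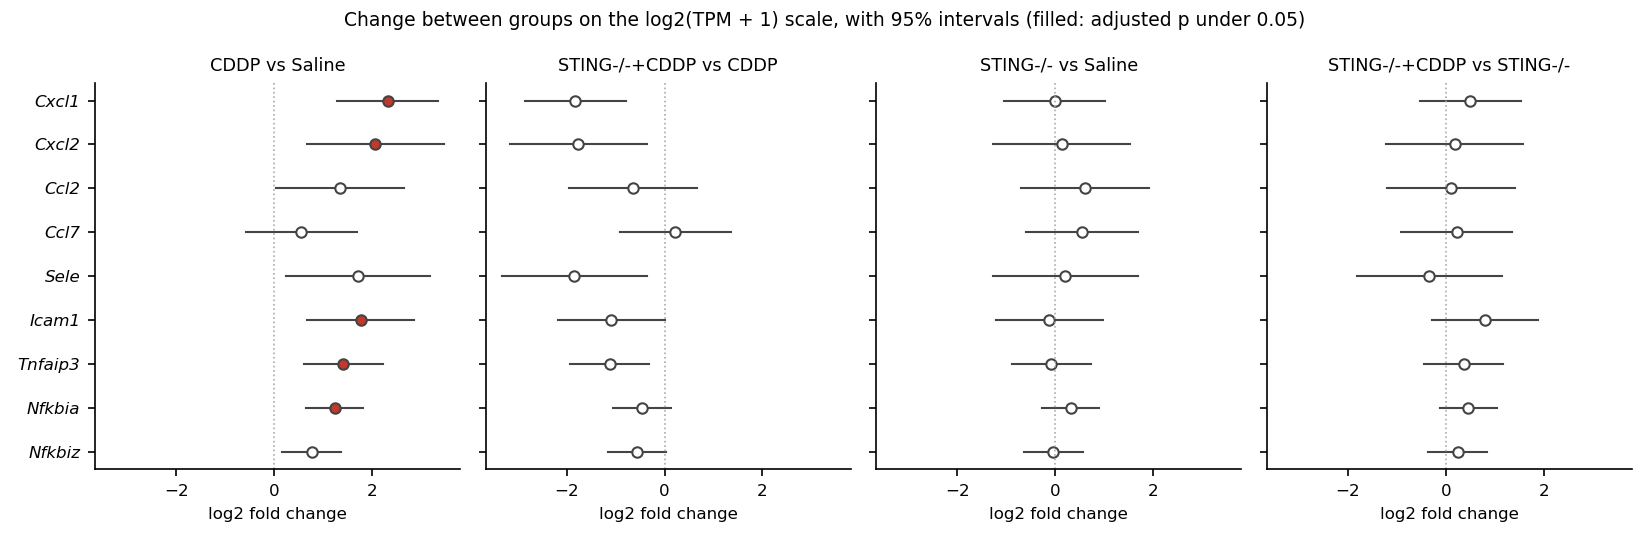
Log2 fold changes of the 9 tested genes in 4 comparisons, on the log2(TPM + 1) scale, with 95% intervals; filled points have an adjusted p under 0.05. The 5 filled points all belong to CDDP vs Saline, where all 9 estimates are above 0, and 8 of 9 estimates are below 0 in STING-/-+CDDP vs CDDP.

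Without cisplatin, loss of STING was accompanied by no call among the 9 genes. STING-/- and Saline hearts overlapped for all 10 genes, beside 2.76% of tested genes higher and 4.88% lower without overlap. The estimates ran from -0.12 (Icam1) to 0.60 (Ccl2), each with an adjusted p of 1, beside 0.0724% of all tested genes called. None of the 9 genes had an unadjusted limma p under 0.05, beside 3.69% of all tested genes. Ccl2 and Ccl7 (0.55) had the largest estimates, which were -0.16 and -0.12 without STING-/- heart 2. That heart held 5.76 times the mean of STING-/- hearts 1 and 3 for Ccl2, 5.95 times for Cxcl2 and 4.65 times for Ccl7.

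Within the STING-/- genotype, cisplatin gave estimates between -0.34 (Sele) and 0.80 (Icam1, SE 0.50, 95% interval -0.29 to 1.90, adjusted p = 0.523), with 0 of 9 genes called and 0 with an unadjusted p under 0.05, beside 0.934% of all tested genes called and 13.5% at the unadjusted threshold. The groups overlapped for all 10 genes, beside 7.28% of tested genes higher and 16.9% lower without overlap. Nfkbia differed by 0.46 (interval -0.12 to 1.05) and Cxcl1 by 0.50 (interval -0.53 to 1.54). The interval of Icam1 reaches past its rise in wild type hearts (1.77), and those of Nfkbia and Cxcl1 end below theirs (1.24 and 2.33). Those rises carry errors of their own (SE 0.50, 0.27 and 0.47), so the intervals do not show a different response. The median of the 9 genes was 0.24 and that of all tested genes -0.11.

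A gene that passes in wild type hearts and not in STING-/- hearts is not thereby shown to respond differently, and the difference itself was tested as the interaction of cisplatin and genotype. All 9 estimates were below 0, from -0.33 (Ccl7) to -2.05 (Sele, SE 0.95, adjusted p = 0.438), with a median of -1.04 against -0.10 for all tested genes. None of the 9 passed, beside 0.00724% of all tested genes. Cxcl1 had an unadjusted p of 0.0187 (-1.82, SE 0.67, adjusted p = 0.366), as 11.7% of all tested genes had one under 0.05. Without CDDP heart 1 the median was -0.72 and Ccl7 was above 0, at 0.07.

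**Figure D4:**
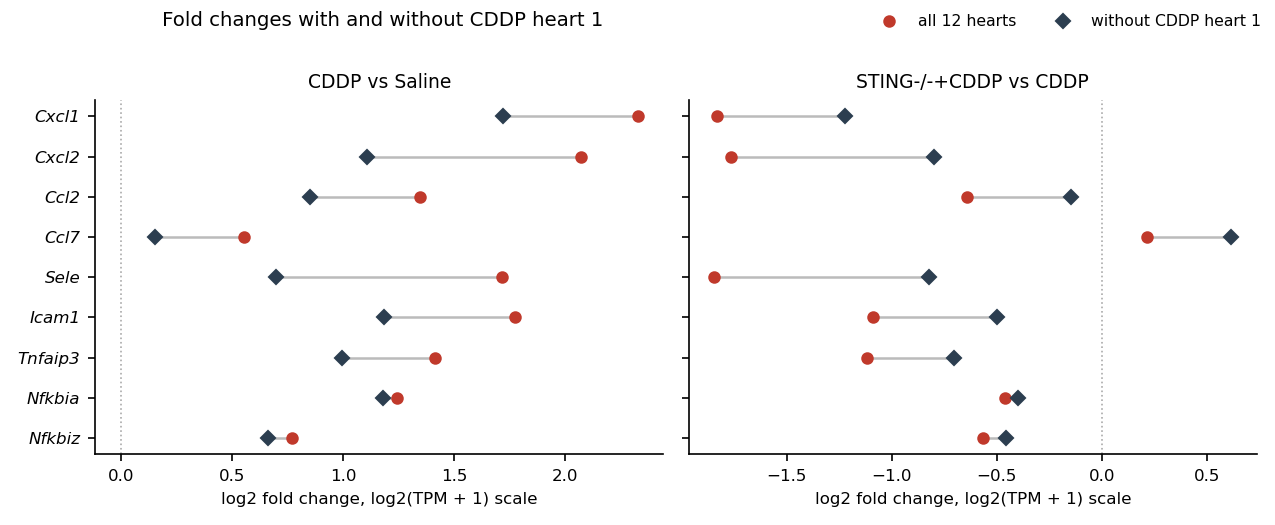
Log2 fold changes of the 9 tested genes with all 12 hearts (red circles) and without CDDP heart 1 (dark diamonds), on the log2(TPM + 1) scale. In CDDP vs Saline all estimates stay above 0 and move toward it, by least for Nfkbia and Nfkbiz and by most for Sele and Cxcl2.

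CDDP heart 1 held the highest TPM of all 12 hearts for 9 of the 10 genes, beside 7.78% of tested genes. Relative to the mean of CDDP hearts 2 and 3 it was 14.0 times as high for Il6, 11.4 times for Sele and 10.4 times for Cxcl2, 2.52 to 3.68 times for Cxcl1, Icam1, Ccl2, Tnfaip3 and Ccl7, and 1.28 and 1.13 times for Nfkbiz and Nfkbia. Without it, 2 of the 9 genes rose in CDDP against Saline (Cxcl1 and Nfkbia) and 0 fell, beside 8.64% of all tested genes that rose and 6.98% that fell in that fit, and the median of the 9 was 0.99. The summed neutrophil and monocyte markers were highest in the same heart, with the sums given above. Most of the monocyte sum came from Chil3, and Ly6c2 and Ccr2 were not highest there. The neutrophil sum of the STING-/-+CDDP hearts was 37.8 to 49.4.

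Other lists moved with the groups as well. Their counts in CDDP against Saline stand beside 8.52% of all tested genes that rose and 10.4% that fell. The sum of 10 immediate-early genes, which answer stress and handling of tissue within minutes, was 171 to 287 TPM in Saline, 366 to 733 in CDDP, 152 to 209 in STING-/- and 167 to 234 in STING-/-+CDDP hearts, and 5 of the 10 rose in CDDP against Saline. Of the 5, Fosb met the filter only through the CDDP hearts (2.31, 1.93 and 1.51 TPM). Outside them it reached 1 TPM in STING-/-+CDDP heart 2 alone (1.14), so its call is no independent support for a rise. The sum of 9 macrophage markers was 538 to 684 in Saline against 152 to 312 in CDDP hearts, with 7 of 9 that fell. Endothelial markers summed to 785 to 845 in Saline and 562 to 683 in CDDP hearts, with 4 of 10 that fell. Of 6 fibroblast markers 3 fell (Col1a1, Col1a2 and Lum) and 0 rose. Their sum did not fall, at 718 to 1763 in Saline and 977 to 2084 in CDDP hearts. Of it Dcn alone gave 516 to 1366 and 920 to 1967. The fat markers summed to 918 to 1839 in Saline and 482 to 694 in CDDP hearts, of which Fabp4 alone gave 898 to 1838 and 457 to 684. Of the 4 tested fat markers 1 fell and 0 rose, and their median log2 fold change was 0.27. Atrial markers ranged from 310 to 39130 within the Saline group, the highest in Saline heart 2. The part of these in the results was not tested.

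The other genes of the pathway were taken as a list of 88, of which 76 were tested. In CDDP against Saline 14 of the 76 rose and 5 fell, with a median of 0.28, beside the 8.52% and 10.4% of all tested genes. Without CDDP heart 1 the counts were 8 and 4, beside 8.64% and 6.98%, and over the alternatives 3 to 17 genes rose and 2 to 8 fell. In STING-/-+CDDP against CDDP 0 rose and 1 fell, beside 0.362% and 0.854% of all tested genes, with a median of -0.37 against -0.09.

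Among the ligands, Tnf, the cytokine that activates NF-kB through its own receptor, was too low to be tested, at 0.30, 0.25 and 0.15 TPM with saline and 0.75, 0.42 and 0.48 with cisplatin, without overlap (exact permutation test, p = 0.10). Its receptor gene Tnfrsf1a differed by 0.50 (adjusted p = 0.234). Tlr4, the receptor for bacterial endotoxin, rose by 0.88 (adjusted p = 0.0197), with 5.30, 6.36 and 5.23 TPM in Saline and 9.39, 11.65 and 12.63 in CDDP hearts. It was the 1 pathway gene that fell in STING-/-+CDDP against CDDP, by 1.06 (adjusted p = 0.0469), a call lost under 16 of 21 alternatives (adjusted p 0.0154 to 0.158), among them without CDDP heart 1, where the difference was -1.17 (0.0626). Of the 5 NF-kB subunits 2 rose and 0 fell, beside 8.52% and 10.4% of all tested genes. Without CDDP heart 1 the counts were 0 and 0, beside 8.64% and 6.98%. Rela (p65), 1 of the 2, rose by 0.66 (adjusted p = 0.0474) and did not pass without CDDP heart 1 (0.51, adjusted p = 0.135). Its call passed under 9 of 21 alternatives (adjusted p 0.0258 to 0.158). Nfkb1 (p50) differed by -0.32 (adjusted p = 0.26).

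Of the 12 other inhibitors 6 rose and 0 fell, beside 8.52% and 10.4% of all tested genes. The counts were 5 and 0 without CDDP heart 1, beside 8.64% and 6.98%, and 3 and 0 without CDDP heart 1 and STING-/- heart 2. Zfp36, which marks cytokine mRNAs for decay, rose by 1.59 (adjusted p = 0.0057), from 8.61, 8.26 and 4.39 TPM in Saline to 35.89, 14.82 and 21.24 in CDDP hearts. Nfkbib, which encodes IkB-beta, rose by 0.94 (adjusted p = 0.00338), and Tnip2, a partner of A20, by 0.97 (adjusted p = 0.0151). Zfp36 and Nfkbib passed under all 21 alternatives.

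Among the 25 other targets tested, 4 rose and 5 fell, shares not far from the 8.52% and 10.4% of all tested genes. Without CDDP heart 1, 2 rose and 4 fell, beside 8.64% and 6.98%. Gadd45b and Ier3, stress genes, rose by 1.34 (adjusted p = 0.0313) and 1.10 (adjusted p = 0.0464), and neither passed without CDDP heart 1. Gadd45b passed under 13 of 21 alternatives (adjusted p 0.0052 to 0.124) and Ier3 under 6 (0.0074 to 0.171). Bcl2l1 and Birc2, which protect cells from apoptosis, rose by 1.17 (adjusted p = 0.0216) and 0.87 (adjusted p = 0.0096). Bcl2l1 passed under 16 of 21 alternatives (adjusted p 0.00876 to 0.102) and Birc2 under 20. Of the 9 tested chemokines outside the 10 genes, 3 fell and 0 rose, beside 10.4% and 8.52% of all tested genes. Of the 9, 4 had an estimate above 0. Ccl12, a relative of Ccl2 and Ccl7 in mice, fell by 2.79 (adjusted p = 0.00159), from 16.86, 14.37 and 7.77 TPM in Saline to 0.32, 2.22 and 0.73 in CDDP hearts. Ccl5, a chemokine for T cells, fell by 2.18 (adjusted p = 0.00976), and Cxcl9, which interferon-gamma induces, by 1.71 (adjusted p = 0.0355). Ccl12 and Ccl5 passed under all 21 alternatives, and Cxcl9 under 13. Ccl3 and Ccl11, named after their values had been seen, were above the Saline hearts in all CDDP hearts without passing. Ccl3 was at 0.66, 0.31 and 0.65 TPM in Saline and 2.09, 0.90 and 2.32 in CDDP hearts (0.81, adjusted p = 0.0938), and Ccl11 at 0.63, 3.02 and 2.66 in Saline and 4.86, 6.78 and 3.11 in CDDP hearts (0.99, adjusted p = 0.0767). Nos2, the inducible nitric oxide synthase, fell by 1.34 (adjusted p = 0.0196). Of the 4 groups, CDDP had the highest mean of Cxcl1 and Cxcl2 and the lowest of Ccl12.

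**Figure D5:**
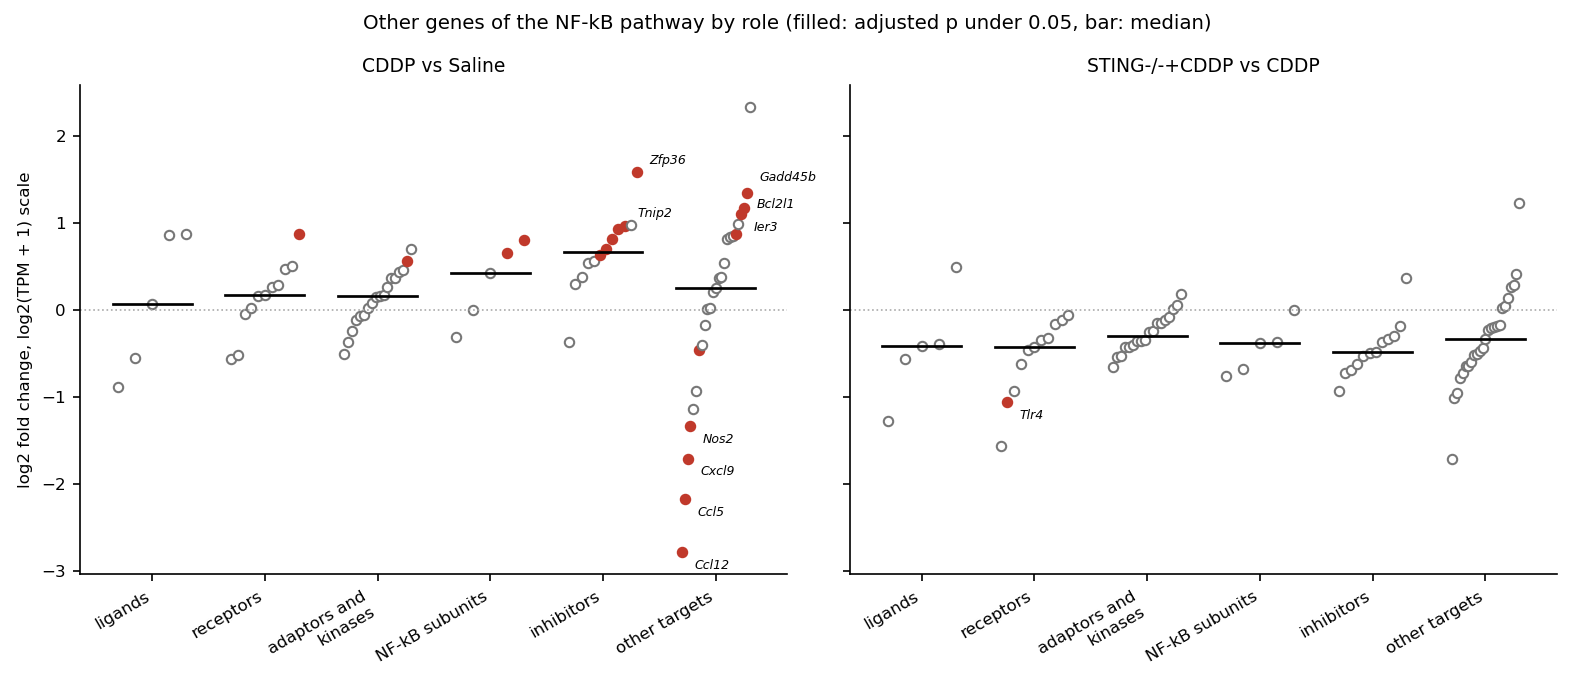
Log2 fold changes of the 76 tested pathway genes by role, in CDDP vs Saline (left) and STING-/-+CDDP vs CDDP (right), on the log2(TPM + 1) scale. Each point is a gene, filled where the adjusted p is under 0.05, and the bar is the median of the role; 6 inhibitors are filled above 0 on the left, and Tlr4 alone is filled on the right.

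Adhesion molecules outside the 10 genes gave no call. Selp, which encodes P-selectin, had a TPM of 0.45, 2.15 and 0.55 for Saline, 32.14, 1.61 and 9.53 for CDDP, 0.84, 9.66 and 0.87 for STING-/- and 2.12, 2.04 and 1.73 for STING-/-+CDDP hearts. As for Sele, CDDP heart 1 was highest and CDDP heart 2 lay inside the Saline range. The difference of 2.34 (SE 0.83) did not pass (adjusted p = 0.0722), and it passed without CDDP heart 2 at 3.28 (adjusted p = 0.0138) and without STING-/- heart 2 (0.0455). Vcam1, which holds monocytes and lymphocytes, differed by 0.38 (adjusted p = 0.702), with 51.27 TPM in Saline heart 2 above every other heart. Of 11 receptors and binding partners of the encoded proteins, 10 were tested and 0 passed in any comparison. In CDDP against Saline this stands beside 8.52% of all tested genes that rose and 10.4% that fell, and the shares elsewhere were smaller. Over the alternatives 0 to 1 rose and 0 to 1 fell in that comparison. In STING-/-+CDDP against STING-/- 0 to 1 fell.

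The genes most like the 9 tested ones across the 12 hearts were Sdc4, Sbno2, Anxa7, Rnd1 and Casp4, with a Pearson r of 0.96 to 0.97 between their log2(TPM + 1) and the mean of the standardized values of the 9, and 0.91 to 0.93 without CDDP heart 1. Sdc4 encodes the heparan sulfate proteoglycan syndecan-4 and Casp4 an inflammatory caspase. Rnd1, a small GTPase, was at 2.04, 2.05 and 1.19 TPM with saline and 20.85, 3.73 and 7.70 with cisplatin. The likeness is a description of 12 hearts that share their libraries and CDDP heart 1, and it carries no test.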

How the data were processed

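Hearts were grouped by the genotype and treatment in the labels. The values are TPM as the authors deposited them, to 2 decimals. Per the labels, fastp, HISAT, RSEM and build GRCm38.p5 were used, with versions not given in the sources used here, and depth is unknown. The columns summed to 999999 to 1000001, and the deposited group means were not used. The most alike of 66 pairs of hearts had equal TPM in 1.01% of tested genes. Values were taken as log2(TPM + 1), kept for genes at a TPM of 1 or more in 3 or more hearts, and fitted with limma 3.58.1 in R 4.3.3 (1 coefficient per group, eBayes with a trend, 8 residual degrees of freedom, two-sided). The script was tested on simulated data. Other steps ran in Python 3.11.15 with scipy 1.17.1. Positions came from GENCODE M21 and promoters from RefSeq.

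Beside the 10 genes, the text names the 5 genes most like them, Sting1, Tnf, Rela, Nfkb1, Tnfrsf1a, Vcam1 and Selp, and up to 12 pathway genes that passed, by size of change. Gm22816, Gm17268 and Gm47079 are named as neighbours. The genes and lists were chosen with earlier results of these data known. Alternatives were a pseudocount of 0.1, no filter, the compared groups alone, 3 other scalings, no trend, a replicate block, leaving out each heart, and, added after seeing the data, the fit without CDDP heart 1 and STING-/- heart 2. The study's other assays were not analysed here.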

Additional observations from a re-analysis of the deposited data

How the results depend on the processing

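The count of the 10 genes that rose in CDDP against Saline, 5 in the fit described, was 2 without the filter, 1 in the fit of the compared groups alone, 5 or 6 under the other scalings, pseudocount and variance model, and 2 to 7 with single hearts left out (2 without CDDP heart 1 or Saline heart 3, 3 without Saline heart 1). It was 3 without CDDP heart 1 and STING-/- heart 2. Over all tested genes, 1177 rose in the fit described and 326 in the fit of the compared groups alone. Without the filter 924 of 27721 rose, and 533 and 575 rose without Saline heart 1 or 3. Without CDDP heart 1 the number was 1194, and 1015 without STING-/- heart 2 as well. In STING-/-+CDDP against CDDP the count of the 10 genes was 0 to 1 with single hearts left out and 0 otherwise. The other comparisons gave 0 throughout. The cause of these shifts was not tested. Replicate numbers do not pair the hearts: deviations of same-numbered hearts correlated at -0.33 to 0.26 over 12 pairs, 3 of them over 0.1, and with the replicate number as a block the count in CDDP against Saline was 5. Scaling by the median of ratios moved the median of all genes from -0.11 to 0.01 in STING-/-+CDDP against STING-/- and from -0.09 to 0.00 against CDDP, and the genes called there went from 118 lower and 50 higher to 379 lower and 276 higher.

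Signs turned in estimates that had not passed. For STING-/- against Saline, Cxcl1 was 0.01 without mitochondrial genes. With single hearts left out, the estimates in that comparison spanned -0.36 to 0.40 for Cxcl1, -0.17 to 0.33 for Cxcl2, -0.16 to 1.01 for Ccl2, -0.12 to 1.01 for Ccl7, -0.042 to 0.38 for Sele, -0.38 to 0.21 for Icam1, -0.27 to 0.10 for Tnfaip3 and -0.15 to 0.15 for Nfkbiz. Without CDDP heart 1 and STING-/- heart 2 it gave -0.17 for Cxcl2, -0.16 for Ccl2, -0.12 for Ccl7 and -0.042 for Sele. For STING-/-+CDDP against STING-/-, Ccl2 spanned -0.31 to 0.86, Ccl7 -0.24 to 0.89 and Cxcl2 -0.026 to 0.47. Ccl7 spanned -0.066 to 0.62 in STING-/-+CDDP against CDDP and -0.80 to 0.34 in the interaction, which without both hearts was 0.74 for Ccl7 and 0.01 for Ccl2 (-1.65 at the lowest without STING-/- heart 3). Vcam1 spanned -0.008 to 1.10 in CDDP against Saline. With 3 hearts a group and no read counts, small differences were not detectable.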

Other observations

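Genes outside the 10 that moved in the other comparisons are given here as values. Of the 10 immediate-early genes, 2 fell and 0 rose in STING-/-+CDDP against CDDP, beside 0.854% and 0.362% of all tested genes. Egr1, a zinc finger factor induced by stress, was at 59.54, 38.26 and 48.01 TPM in CDDP and 9.72, 12.68 and 7.57 TPM in STING-/-+CDDP hearts, a fall of 2.18 on the log2 scale (limma adjusted p = 0.0452). Nr4a1, an orphan nuclear receptor of the same kind, was at 60.86, 31.88 and 74.23 TPM against 8.03, 8.78 and 7.68 TPM, a fall of 2.55 (adjusted p = 0.0216). Without CDDP heart 1 the differences were -2.02 for Egr1 (adjusted p = 0.0904) and -2.44 for Nr4a1 (adjusted p = 0.0552), and 0 of the 10 passed. In that fit 61 of the 13815 tested genes were called in this comparison, against 168 with all hearts.

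Of the 76 pathway genes, 1 fell in STING-/-+CDDP against STING-/- and 0 rose, beside 0.934% of all tested genes called in either direction. It was Ccl8, a chemokine encoded near Ccl2 and Ccl7, at 16.44, 24.85 and 8.33 TPM in STING-/- and 4.23, 1.48 and 1.76 TPM in STING-/-+CDDP hearts, a fall of 2.29 (adjusted p = 0.0458). Without CDDP heart 1 and STING-/- heart 2 the difference was -1.95 and did not pass (adjusted p = 0.137). Egr1, Nr4a1 and Ccl8 were chosen after their values were seen.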
